A study of Mus musculus with 12 samples.

Results

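A set of 41 genes of the lysosome was followed across the groups of an RNA-seq experiment on BMDMs, macrophages derived from mouse bone marrow in culture. The set was given as a list of gene symbols and held 12 cathepsins and other proteases, 7 glycosidases, 6 lipid-handling enzymes and soluble cofactors, 7 membrane proteins, 3 transcription factors and 6 proteins of the proton pump. All 41 symbols were found among the 48526 genes of the count table, and all 41 were among the 15523 genes with enough counts to be tested. The rule used their symbols and no measured value.

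The cells came from mice homozygous for a deletion of HSS9 (HSS9 KO, the TNF-9 KO of the study), an enhancer upstream of Tnf, or from wild-type (WT) mice. Each genotype was left untreated (UT, carrying the treatment label PBS) or given lipopolysaccharide (LPS), which macrophages sense as a sign of bacteria, for 6 hr. The resulting 4 groups had 3 libraries each, numbered by batch. All cells had been cultured for 6 d in medium conditioned by L929 cells. The labels call the WT mice littermate controls. The methods state that only young adult males were used, that C57BL/6 mice were purchased and that KO mice were kept as homozygous breeding pairs. The labels and methods thus may differ on the source of the WT mice. The deletion and any other difference between WT and KO mice cannot be told apart. The labels name batches but not separate animals, so the p-values measure the spread between libraries, which may be technical.

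Lysosomes are acidic organelles in which hydrolases break down proteins, glycans, lipids and engulfed material, and macrophages are rich in them. A proton pump, the V-ATPase, acidifies the lumen, with a V1 part that hydrolyzes ATP and a membrane-embedded Vo part that carries protons. Many genes of this system carry an E-box, the letters CACGTG, near their start site, which is bound by the related factors Tfeb, Tfe3 and Mitf when these enter the nucleus.

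Library totals ranged from 26154533 to 36423921 counts. Levels are given as CPM on TMM-scaled library sizes, and differences as log2FC, the log2 fold change, with its SE. Tnf, the readout of the deletion, was at 889.7 ± 57.4 CPM (SD, n = 3) in WT LPS and 432 ± 15.2 CPM (SD, n = 3) in KO LPS. All 8 macrophage markers were detected, with a summed level of 27598 to 33852 CPM over the 12 libraries, against at most 3.44 CPM for the T cell list and 1.79 CPM for the B cell list. Small structured RNAs, which lack a poly(A) tail, took a share of 2.92 to 3.16% of counts in WT UT, 6.51 to 7.70% in KO UT, 3.93 to 6.72% in WT LPS and 3.15 to 3.29% in KO LPS. This share thus differed between the genotypes in both treatments and in opposite directions. The counting did not state a strand setting, and exons of 10 members overlap another gene. Counts of Ctsa, which shares 10.5% of its exon length with Pltp on the other strand, are therefore uncertain. Ctsd shares 34.4% with Gm49369 on the same strand, which was at 0 counts in all libraries. The WT LPS libraries stood farthest apart from each other, with a chi-square per degree of freedom of 12.4 to 46.3 between pairs, against 3.81 to 14.002 within the other groups.

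In the resting WT cells the lysosomal genes spanned a wide range of levels. They took 4.59% ± 0.0260 (SD, n = 3) of all counts in WT UT and 4.44% ± 0.0317 in KO UT, against 2.49% ± 0.0540 in WT LPS and 2.69% ± 0.0150 in KO LPS. Of protein-coding counts alone, which leaves out the small structured RNAs, they took 5.08% in WT UT, 5.12% in KO UT, 2.81% in WT LPS and 2.94% in KO LPS. The share of all counts was thus lower in KO than in WT without LPS, but not the share of protein-coding counts. Levels between genes were compared as CPM per kb of exon. On that scale Ctss, a cysteine protease that trims the invariant chain for antigen presentation, was highest in WT UT at 5060 ± 85.2 CPM per kb (SD, n = 3). Psap, the precursor of the saposin cofactors, followed at 1581 ± 35.4 CPM per kb. Ctsb, a cysteine protease, was at 1049 ± 28.1 CPM per kb and Ctsd, an aspartic protease, at 965 ± 33.6 CPM per kb. Lamp1, a heavily glycosylated protein of the lysosomal membrane, stood next at 515 ± 2.73 CPM per kb. The lowest in WT UT were Mcoln1 (6.31 ± 0.318), the calcium channel TRPML1, Tfeb (5.23 ± 0.347) and Ctsf (2.57 ± 0.211 CPM per kb), a cysteine protease. In this order the ranges of the 3 libraries overlapped for 7 of the 40 neighbouring pairs in WT UT and for 12, 18 and 17 in KO UT, WT LPS and KO LPS. Ctss was highest in all 4 groups. Ctsc, in position 27 in WT UT, was in position 6 in both LPS groups, or 3 when the length of the longest transcript was used in place of the merged exons.

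**Figure D1:**
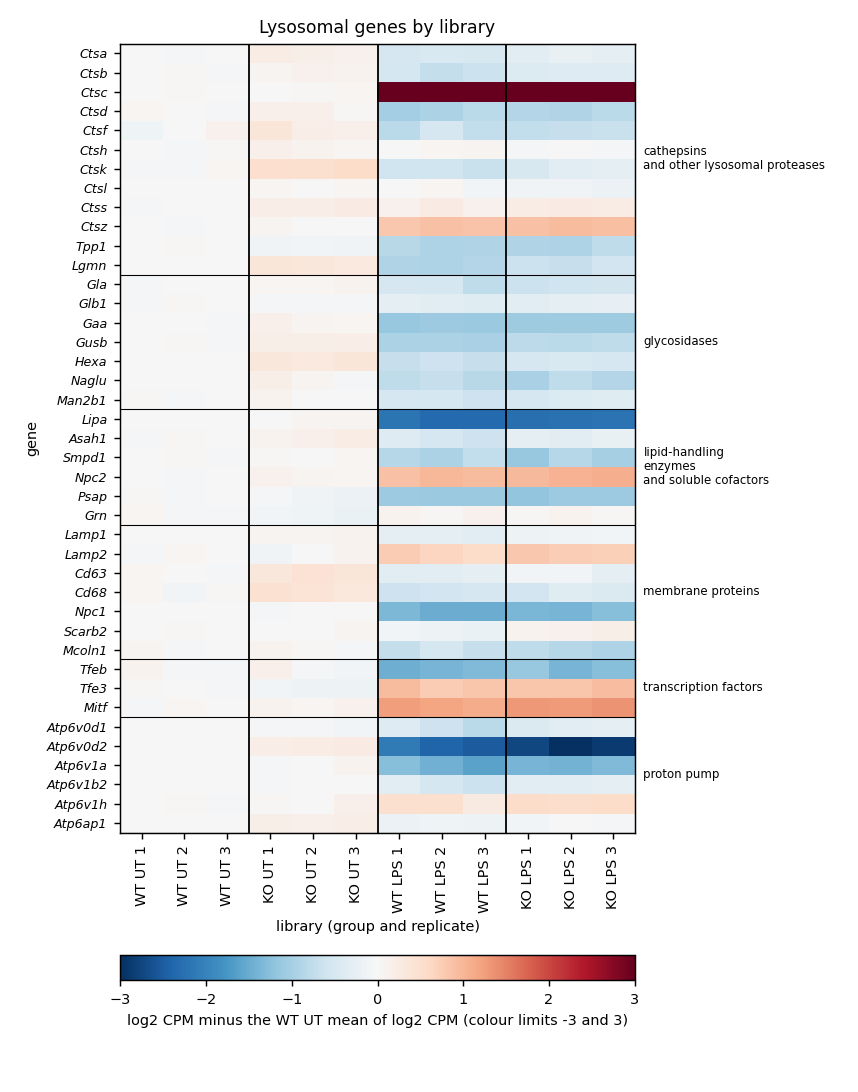
Level of each of the 41 lysosomal genes (rows, grouped by role) in each of the 12 libraries (columns), as log2 CPM minus the mean of log2 CPM in WT UT, on a color scale that ends at -3 and 3 (Ctsc lies beyond it after LPS). After LPS the blue rows of Lipa, Atp6v0d2 and most hydrolases and the red rows of Ctsc, Npc2, Ctsz, Tfe3 and Mitf appear in both genotypes, that of Atp6v0d2 being deeper in KO. The rise of Lamp2 kept its call in 23 of 24 alternatives in WT and 24 of 24 in KO. Its WT estimate was -0.0085 when libraries were scaled by total counts.

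The promoters show which genes carry the E-box. The windows were those of RefSeq on GRCm38.p6, from 250 bases before to 50 after each start site, and 34 of the 41 genes had one. Atp6v1b2, Ctsb, Npc1, Atp6v0d2, Ctsh, Asah1 and Atp6v1h had none in the table. The letters CACGTG, which read the same on both strands, were found in the window of 13 of the 34 genes (38.2%), namely Atp6v0d1, Atp6v1a, Ctsa, Ctsd, Ctsf, Ctsl, Gaa, Gla, Glb1, Lamp1, Lgmn, Mcoln1 and Naglu. They were found in 7.15% of all 32851 windows, in 8.09% of the 27025 genes with a window and in 11.6% of the 10233 tested genes with one. The longer form TCACGTG on either strand, which always contains the first motif, was found for 11 of the 34 genes (32.4%) against 4.29% of all genes with a window and 6.93% of the tested ones. The stretches of 7 genes are shown as examples with 1, 2 or 4 copies of the motif upstream of the start site. Each lies upstream of the start site, reads 5′ to 3′ on the strand of the gene, and has each CACGTG in capitals.
Lamp1 (chr8:13159085-13159160, plus strand): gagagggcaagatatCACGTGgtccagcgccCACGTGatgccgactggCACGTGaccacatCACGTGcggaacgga
Mcoln1 (chr8:3500433-3500494, plus strand): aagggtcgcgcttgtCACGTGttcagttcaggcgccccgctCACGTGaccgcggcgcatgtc
Gla (chrX:134601179-134601247, minus strand): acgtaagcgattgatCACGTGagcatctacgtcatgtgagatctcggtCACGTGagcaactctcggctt
Atp6v1a (chr16:44139370-44139405, minus strand): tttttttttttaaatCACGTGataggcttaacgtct
Gaa (chr11:119267808-119267843, plus strand): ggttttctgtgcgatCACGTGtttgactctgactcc
Lgmn (chr12:102439121-102439156, minus strand): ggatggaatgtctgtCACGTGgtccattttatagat
Ctsl (chr13:64370736-64370770, minus strand): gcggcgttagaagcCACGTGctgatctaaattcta
Lamp1 had 4 copies, from 61 to 15 bases upstream of its start site, and Mcoln1 had 2, at 71 and 45 bases. Ctsd, not shown, also had 2, at 245 and 98 bases, and Ctsa had 1 upstream and 1 downstream of its start site. Gla had 2 at 227 and 194 bases, and Atp6v1a, the catalytic A subunit of the pump, had 1 at 131 bases. Gaa, the glycogen-degrading acid alpha-glucosidase, had 1 at 140 bases. In Ctsl the motif lies 236 bases upstream and is not preceded by T. A match describes letters in a window and does not show binding.

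The first question was what LPS did to the lysosomal genes in WT cells. Most of them fell, by amounts that were mostly below 2-fold, while a few rose, and Ctsc rose far more than any other member. At an edgeR adjusted p below 0.05, 30 of the 41 genes were lower and 8 higher after LPS, against 35.3% and 38.0% of all genes tested (73.3% in either direction). With an absolute log2 fold change above 1 as well, 7 were lower and 2 higher, against 18.7% and 19.1% of all genes (37.8% in either direction). The libraries of the 2 groups did not overlap for 38 of the 41 genes, against 74.8% of all genes tested. The median log2 fold change of the 41 genes was -0.56, beside 0.05 over all genes tested. In bulk RNA, fewer cells of a type and less RNA per cell cannot be told apart. The neutrophil list summed to 20.0 to 21.5 CPM in WT UT and 50.4 to 79.3 CPM in WT LPS, with 2 of 5 tested markers higher and 2 lower. Of 7 tested osteoclast markers 4 were higher and 2 lower, and of 8 macrophage markers 4 and 4. Their part in the result was not tested. Scaling by total counts instead of TMM, an alternative added after the TMM factors had been seen, lowered the median of all genes by 0.66 on the log2 scale and gave 25 lower and 1 higher members past both thresholds. Upper-quartile scaling gave 12 lower and 1 higher.

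**Figure D2:**
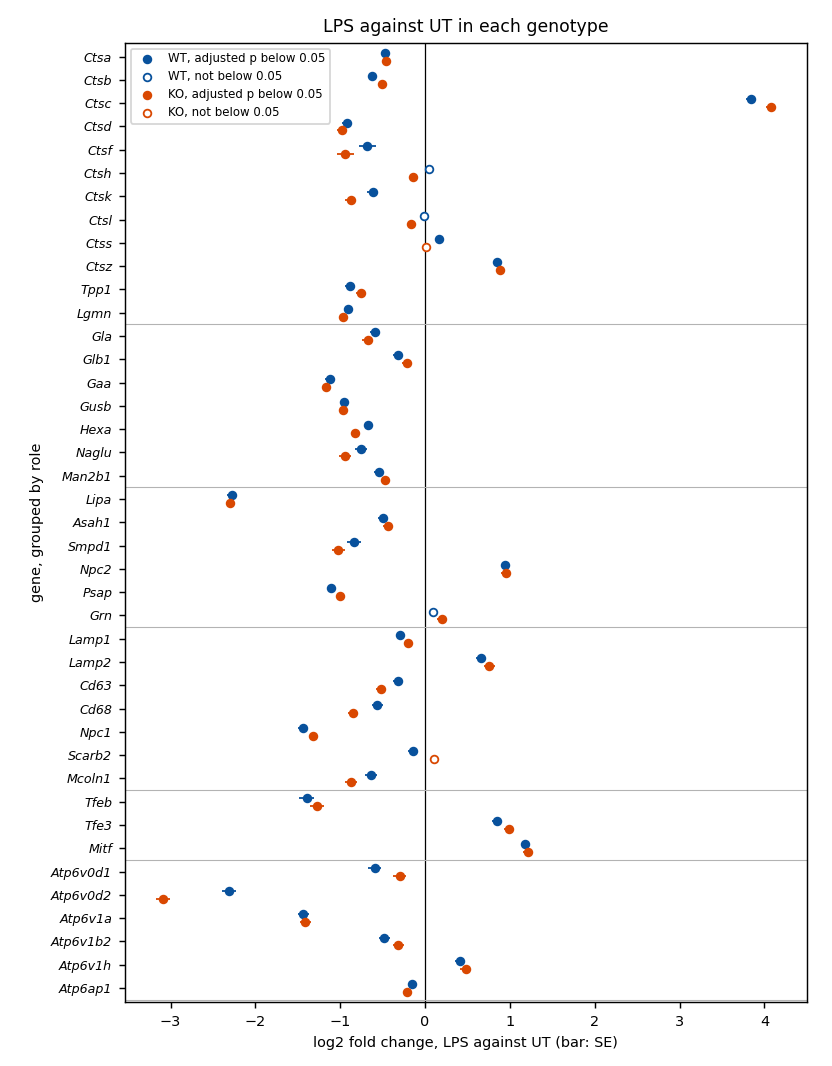
Log2 fold change of each of the 41 lysosomal genes, LPS against UT, in WT (blue) and KO (orange), grouped by role, with SE as bars and filled points where the edgeR adjusted p was below 0.05. Ctsc stands at 3.84 in WT and 4.08 in KO, all 7 glycosidases lie below 0 in both genotypes, and Atp6v0d2 is the gene whose 2 points lie farthest apart. Of the filled points above 0, those of Lamp2, Atp6v1h and Ctss in WT and of Atp6v1h and Grn in KO lie below 0 when scaled by total counts.

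Among the proteases, Ctsc (ENSMUSG00000030560.17, chromosome 7, 88278085 to 88310888) encodes dipeptidyl peptidase I, which activates serine proteases of immune cell granules. It was at 171, 178 and 173 CPM in the WT UT libraries and 175, 179 and 181 CPM in the KO UT libraries. After LPS it was at 2650.1, 2492 and 2311 CPM in WT and 3022, 2999 and 3026 CPM in KO. Every LPS library lay far above every UT library, and every KO LPS library above every WT LPS library. The rise was 14.3-fold in WT (log2FC 3.84 with SE 0.0556, adjusted p 3.18e-23 by edgeR). Ctsz, a carboxypeptidase, rose from 535 ± 8.38 to 966 ± 26.7 CPM (SD, n = 3 each; log2FC 0.85 with SE 0.0487, adjusted p 6.98e-13 by edgeR). Ctss rose in WT (log2FC 0.17, adjusted p 0.00112 by edgeR), but its estimate was -0.017 with upper-quartile scaling and -0.50 with total-count scaling. Of the 12 proteases 7 fell in WT (Ctsa, Ctsb, Ctsd, Ctsf, Ctsk, Tpp1 and Lgmn), with log2 fold changes between -0.93 for Ctsd and -0.48 for Ctsa. Lgmn (legumain, an asparaginyl endopeptidase) went from 782, 765 and 764 to 409.9, 406 and 418 CPM, with no overlap. Ctsh (0.04, edgeR adjusted p 0.428) and Ctsl (-0.01, 0.873) did not pass the test.

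All 7 glycosidases fell in WT and all 7 in KO. The largest change was that of Gaa, which was at 70.3, 70.4 and 67.4 CPM in the WT UT libraries and 31.4, 32.4 and 31.9 CPM in the WT LPS libraries (log2FC -1.12 with SE 0.0555, adjusted p 5.63e-14 by edgeR). In KO it was at 77.6, 73.0 and 72.5 CPM without LPS and 33.1, 33.3 and 33.0 CPM with it. Gaa was followed by Gusb (beta-glucuronidase, -0.96), Naglu, which acts on heparan sulfate (-0.76), Hexa, the alpha subunit of beta-hexosaminidase (-0.67), Gla, the alpha-galactosidase A (-0.59), Man2b1, an alpha-mannosidase (-0.55), and Glb1, the beta-galactosidase (-0.32). Glb1 shares 5.49% of its exon length with Tmppe on the same strand.

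The genes of lipid handling moved both ways, and those of cholesterol release did not move together. Lipa (ENSMUSG00000024781.15, chromosome 19, 34492318 to 34527474), the acid lipase that frees cholesterol from its esters, was at 1775, 1792 and 1777 CPM in WT UT and 392, 354 and 353 CPM in WT LPS. In KO it was at 1796, 1895 and 1882 CPM without LPS and 371, 377 and 385 CPM with it. The UT and LPS libraries were far apart while the 2 genotypes overlapped after LPS. The fall was 4.86-fold in WT (log2FC -2.28 with SE 0.0521, adjusted p 5.5e-20 by edgeR) and 4.92-fold in KO (log2FC -2.30 with SE 0.0521, adjusted p 4.39e-20 by edgeR). Npc1, the membrane transporter that exports cholesterol, went from 282, 289 and 285 to 113, 102 and 102 CPM in WT and from 276, 282 and 283 to 110.0, 109 and 118 CPM in KO. Its log2FC was -1.44 with SE 0.0567 (adjusted p 9.2e-16 by edgeR) in WT and -1.32 with SE 0.0564 (adjusted p 4.08e-15 by edgeR) in KO. Npc2, the soluble protein that hands cholesterol to Npc1, rose instead, from 876 ± 12.3 to 1678 ± 69.5 CPM in WT (SD, n = 3 each; log2FC 0.94 with SE 0.0486, adjusted p 1.25e-13 by edgeR). Psap was at 4428, 4235 and 4349 CPM in WT UT and 2024, 2012 and 2005 CPM in WT LPS (log2FC -1.11 with SE 0.0453, adjusted p 1.81e-15 by edgeR), and in KO at 4143, 4013 and 3823 CPM without and 1908, 2036 and 2043 CPM with LPS. Smpd1, the acid sphingomyelinase, fell by 0.84 and Asah1, the acid ceramidase, by 0.50 on the log2 scale in WT. Grn (progranulin) was at 777 ± 33.2 CPM before and 828 ± 25.6 CPM after LPS (edgeR adjusted p 0.111).

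Of the 7 membrane proteins 6 fell in WT, with Npc1 the largest and Scarb2, the sorting receptor of glucocerebrosidase, the smallest (-0.15, edgeR adjusted p 0.0156). The fall of Scarb2 missed the threshold in 5 of 24 alternatives, among them protein-coding genes only (-0.07, edgeR adjusted p 0.185), the small RNA share as a covariate (-0.05, 0.577) and leaving out WT LPS replicate 3 (-0.12, 0.0553) or WT UT replicate 2 (-0.13, 0.0542). Mcoln1 fell by 0.64, Cd68, a glycoprotein of macrophage lysosomes, by 0.56, the tetraspanin Cd63 by 0.32 and Lamp1 by 0.30 on the log2 scale. Lamp2, which has a role in chaperone-mediated autophagy, rose from 732 ± 27.0 to 1154 ± 80.9 CPM (log2 fold change 0.66, edgeR adjusted p 2.17e-09), but its estimate was -0.0085 with total-count scaling.

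Of the proton pump proteins 5 of 6 fell in WT and 5 of 6 in KO. Atp6v0d2 (ENSMUSG00000028238.6, chromosome 4, 19876841 to 19922605), a Vo subunit that is abundant in osteoclasts and some macrophages, was at 76.6, 76.7 and 76.1 CPM in WT UT and 87.1, 88.7 and 90.5 CPM in KO UT. After LPS it was at 17.7, 14.5 and 13.6 CPM in WT and 11.5, 9.31 and 10.4 CPM in KO. The KO libraries lay above the WT libraries without LPS and below them with LPS. The fall was 4.98-fold in WT (log2FC -2.32 with SE 0.0803, adjusted p 9.01e-17 by edgeR) and 8.52-fold in KO (log2FC -3.09 with SE 0.0834, adjusted p 9.76e-19 by edgeR). Its widely expressed counterpart Atp6v0d1 fell by 0.59 in WT and 0.30 in KO on the log2 scale. Atp6v1a (ENSMUSG00000052459.13, chromosome 16, 44085402 to 44139705) went from 695, 708 and 708 to 289, 259 and 233 CPM in WT, and from 691, 709 and 762 to 269.8, 261 and 279.6 CPM in KO, both without overlap (log2FC -1.43 with SE 0.0655, adjusted p 1.31e-14 by edgeR, in WT). The V1 subunit Atp6v1b2 fell by 0.48 and the accessory protein Atp6ap1 by 0.15, which missed the threshold over protein-coding genes only (-0.07, edgeR adjusted p 0.139). Atp6v1h, a regulatory V1 subunit, rose by 0.41 (edgeR adjusted p 2.56e-06), but its estimate was -0.25 with total-count scaling.

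The 3 transcription factors moved in different directions. Tfeb (ENSMUSG00000023990.18, chromosome 17, 47737030 to 47792419) was at 31.9, 28.7 and 28.3 CPM in WT UT, 32.8, 29.1 and 28.05 in KO UT, 10.8, 11.3 and 11.8 in WT LPS and 13.5, 11.3 and 12.3 CPM in KO LPS. Every LPS library lay below every UT library (log2FC -1.39 with SE 0.0876, adjusted p 3.82e-12 by edgeR, in WT). Tfe3 (ENSMUSG00000000134.17, chromosome X, 7762560 to 7775202) was at 68.1, 66.6 and 63.2 CPM in WT UT and 128, 112 and 117 CPM in WT LPS (log2FC 0.85 with SE 0.0591, adjusted p 2.2e-11 by edgeR). Mitf (ENSMUSG00000035158.15, chromosome 6, 97807052 to 98021349) was at 122, 131 and 125 CPM in WT UT and 301, 287 and 273 CPM in WT LPS (log2FC 1.18 with SE 0.0551, adjusted p 1.86e-14 by edgeR). In KO, Tfe3 was at 62.2, 59.5 and 59.3 CPM without and 117, 117 and 124 CPM with LPS, and Mitf at 135, 132 and 138 CPM without and 313, 303 and 323 CPM with it. Tfe3 and Mitf were thus higher after LPS with no overlap in either genotype. Each scaling tried kept the 3 directions, with the smallest estimate for Tfe3 in WT with total-count scaling (0.19). These factors are controlled mainly by their entry into the nucleus, which RNA levels do not measure.

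**Figure D3:**
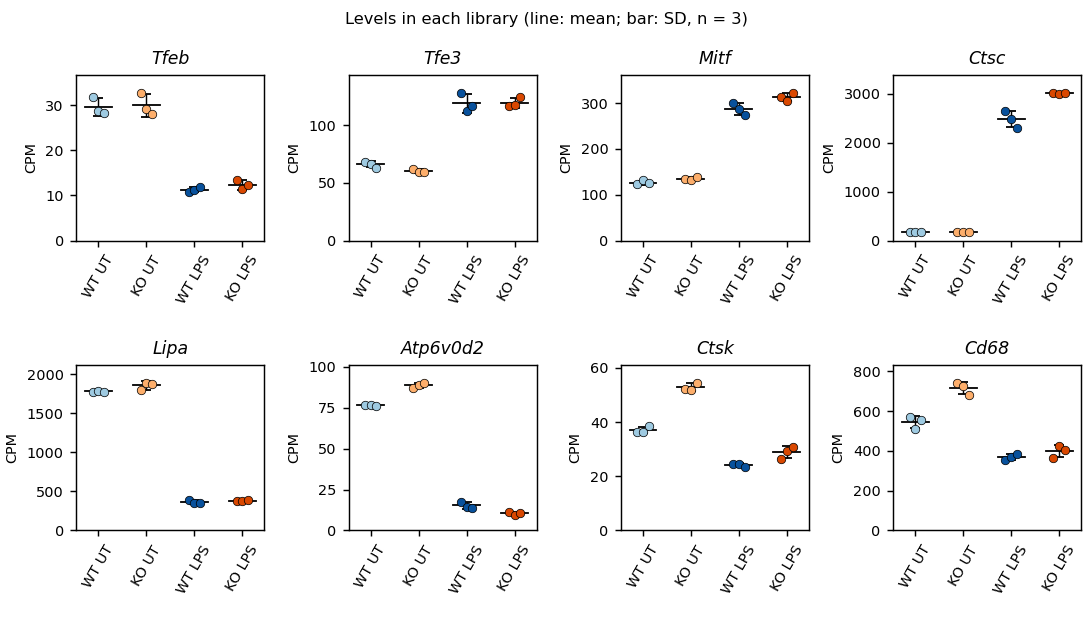
CPM in each library (points) of Tfeb, Tfe3, Mitf, Ctsc, Lipa, Atp6v0d2, Ctsk and Cd68 by group, with the mean as a line and the SD as a bar (n = 3), and axes that start at 0. Tfeb falls with LPS where Tfe3 and Mitf rise. Atp6v0d2, Ctsk and Cd68 are higher in KO UT than in WT UT, and after LPS Atp6v0d2 is lower and Ctsc higher in KO.

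The LPS effects were set against the promoters. Of the 13 with CACGTG in the window 12 fell and 0 rose in WT, Ctsl being the other one, and 13 fell in KO. None of the scalings tried turned one of the 13 into a rise. Of the 21 genes with a window but without it, 13 fell and 7 rose in WT and 12 fell and 7 rose in KO, or 15 and 5 in WT and 15 and 6 in KO with total-count scaling. The median log2 fold change in WT was -0.64 with the motif and -0.32 without it. The 2 groups ranged from -1.43 to -0.01 and from -2.28 to 3.84. Ctsc, Atp6v0d2 and Lipa, the members that changed most, lacked the motif or a window. Of the 10 members past both thresholds after LPS in either genotype 8 had a window, and 2 of these held the motif (Atp6v1a and Gaa). Over all tested genes with a window, 45.6% of the 1187 with CACGTG were lower and 35.3% higher in WT, against 39.5% and 37.5% of the 9046 without it. In KO 46.1% and 33.4% were so with the motif and 40.97% and 36.5% without it. No test was made of the difference among members, and 7 of them had no window.

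**Figure D4:**
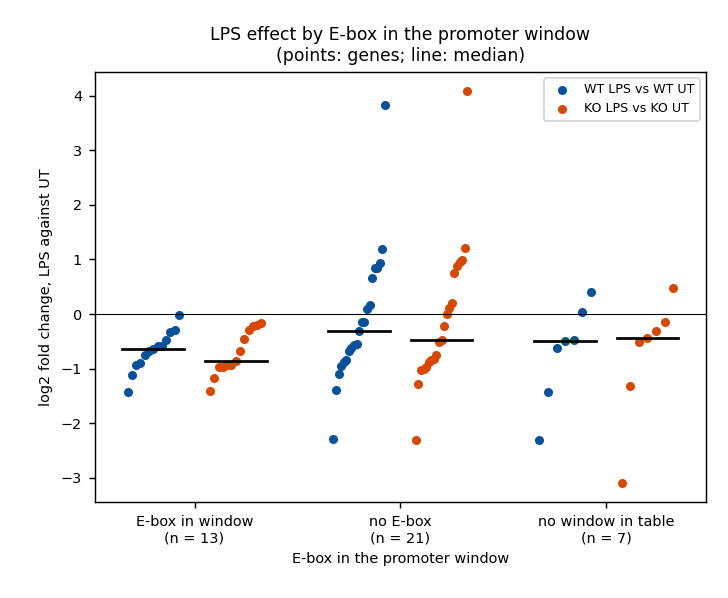
Log2 fold change of LPS against UT (vertical axis) for each lysosomal gene (point) in WT (blue) and KO (orange), by whether the promoter window holds the E-box (n = 13), lacks it (n = 21) or is not in the table (n = 7), with medians as lines. All 13 E-box genes lie below 0 in both genotypes, the highest at -0.01 in WT, while the other 2 groups spread on both sides.

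The same comparison in KO cells asked whether the response to LPS was kept without HSS9. At an edgeR adjusted p below 0.05, 31 of the 41 genes fell and 8 rose, against 37.7% and 35.1% of all genes tested (72.8% in either direction). Past both thresholds 8 fell and 2 rose, against 19.3% and 17.7% (37.0% in either direction). The libraries did not overlap for 40 of the 41 genes, against 76.0% of all genes. The median log2 fold change was -0.50, beside -0.06 over all genes. Past both thresholds were the 9 genes of WT (Ctsc and Mitf higher, and Atp6v0d2, Lipa, Npc1, Atp6v1a, Tfeb, Gaa and Psap lower) and Smpd1. The latter was at 24.9, 24.2 and 25.4 CPM in KO UT and 11.1, 13.4 and 12.3 CPM in KO LPS (log2FC -1.02 with SE 0.0811, adjusted p 2.15e-10 by edgeR), and in WT at 24.6, 25.1 and 23.4 CPM without LPS and 13.5, 12.7 and 14.6 CPM with it, where it passed the p threshold alone. Psap, at -1.0005, and Smpd1 lay close to the fold change threshold. The rise of Grn in KO (0.20, edgeR adjusted p 0.00165) turned to -0.31 with total-count scaling, and that of Atp6v1h (0.48) to -0.033. The numbers past both thresholds were 21 lower and 1 higher with total-count scaling, 17 lower and 2 higher with upper-quartile scaling, and 6 lower and 3 higher with RLE scaling or in DESeq2.

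The next question was how KO and WT cells differed without LPS. The differences were small, and those that passed the test were all higher in KO. At an edgeR adjusted p below 0.05, 11 of the 41 genes were higher and 0 lower in KO UT, against 14.1% and 9.69% of all genes tested (23.8% in either direction). Of the 41 genes 0 passed both thresholds, against 1.82% of all genes, also 0 in DESeq2 and 0 at an unadjusted p below 0.05 with the same fold change, against 2.86%. The libraries did not overlap for 27 genes, against 40.8% of all genes, and the median log2 fold change was 0.08, beside 0.00 over all genes. Ctsk (ENSMUSG00000028111.4, chromosome 3, 95499256 to 95509362), a collagen-degrading protease, was at 36.4, 36.3 and 38.5 CPM in WT UT and 52.4, 52.0 and 54.6 CPM in KO UT, with no overlap (log2FC 0.52 with SE 0.0623, adjusted p 3.68e-06 by edgeR). Within the 3 batches the difference was 0.52, 0.52 and 0.51. Cd68 (ENSMUSG00000018774.13, chromosome 11, 69664213 to 69666153) was at 569, 509.8 and 555 CPM in WT UT and 744, 726 and 682 CPM in KO UT (log2FC 0.40 with SE 0.0609, adjusted p 4.72e-05 by edgeR). Cd63 (ENSMUSG00000025351.13, chromosome 10, 128900989 to 128912822) was at 351, 333 and 328 CPM in WT UT and 425, 457 and 434 CPM in KO UT (log2FC 0.38 with SE 0.0565, adjusted p 3.49e-05 by edgeR). All 3 were higher in every KO library than in every WT library.

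Hexa (ENSMUSG00000025232.7, chromosome 9, 59539540 to 59565109) was at 936, 932 and 926 CPM in WT UT and 1186, 1145 and 1196 CPM in KO UT (log2FC 0.34 with SE 0.0456, adjusted p 1.3e-05 by edgeR), and shares 12.8% of its exon length with Tmem202 on the other strand. Lgmn (ENSMUSG00000021190.14, chromosome 12, 102394084 to 102439813) was at 782, 765 and 764 CPM in WT UT and 989, 974 and 947 CPM in KO UT (log2FC 0.33 with SE 0.0477, adjusted p 2.32e-05 by edgeR). Ctss (ENSMUSG00000038642.10, chromosome 3, 95526786 to 95556403), the most abundant member, was at 6749, 6979 and 6886 CPM in WT UT and 7927, 7837 and 8104 CPM in KO UT (log2FC 0.21 with SE 0.0410, adjusted p 0.000558 by edgeR). The other 5 were Gusb, Ctsa, Atp6ap1, Atp6v0d2 and Asah1, between 0.16 for Asah1 and 0.22 for Atp6v0d2. The call of Asah1 was lost in 16 of 24 alternatives, among them the replicate block (0.16, edgeR adjusted p 0.0882), and that of Atp6v0d2 in 9 of 24. By role they were 4 of the 12 proteases, 2 of the 7 glycosidases, 1 of the 6 lipid genes, 2 of the 7 membrane proteins and 2 of the 6 pump proteins, while the transcription factors stood between -0.13 for Tfe3 and 0.10 for Mitf. All 11 had the same sign in all 3 batches. Each kept a positive estimate under every scaling tried, but the number of members higher and lower was 6 and 4 with RLE scaling, 9 and 4 in DESeq2, 10 and 3 with upper-quartile scaling and 5 and 8 with total-count scaling. The number that passed was 7 without WT UT replicate 2 and 17 (14 higher, 3 lower) when only the 2 UT groups were fitted. Neutrophil markers moved with the genotype here, with a summed level of 20.0 to 21.5 CPM in WT UT and 42.2 to 47.7 CPM in KO UT, 4 of 5 tested markers higher in KO and Ly6g at 0 counts in all libraries, and their part in the result was not tested. The macrophage list summed to 28511 to 29541 CPM in WT UT and 32772 to 33852 CPM in KO UT, with 5 of its 8 markers higher and 1 lower, and the osteoclast list to 61.6 to 62.7 CPM in WT UT and 55.2 to 57.0 CPM in KO UT, with 1 of 7 tested markers higher (Dcstamp, 0.55, edgeR adjusted p 0.0045) and 1 lower (Nfatc1, -0.32, 0.000716). The stromal cell list summed to 7.37 to 7.72 CPM in WT UT and 10.8 to 11.66 CPM in KO UT, with 3 of 6 tested markers higher. The part of these lists was not tested either. With the share of small RNAs as a covariate, 5 of the 11 passed (Ctsk at 0.66, Hexa at 0.34, Ctss at 0.26, Atp6v0d2 at 0.65 and Asah1 at 0.50) and 6 did not. Without the covariate the 5 stood at 0.52, 0.34, 0.21, 0.22 and 0.16. Of the other 6, the estimates were 0.33 for Cd63, 0.26 for Lgmn, 0.22 for Gusb, 0.18 for Atp6ap1, 0.18 for Cd68 and 0.10 for Ctsa (edgeR adjusted p 0.112 to 0.663), beside 0.38, 0.33, 0.18, 0.17, 0.40 and 0.18 without the covariate.

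**Figure D5:**
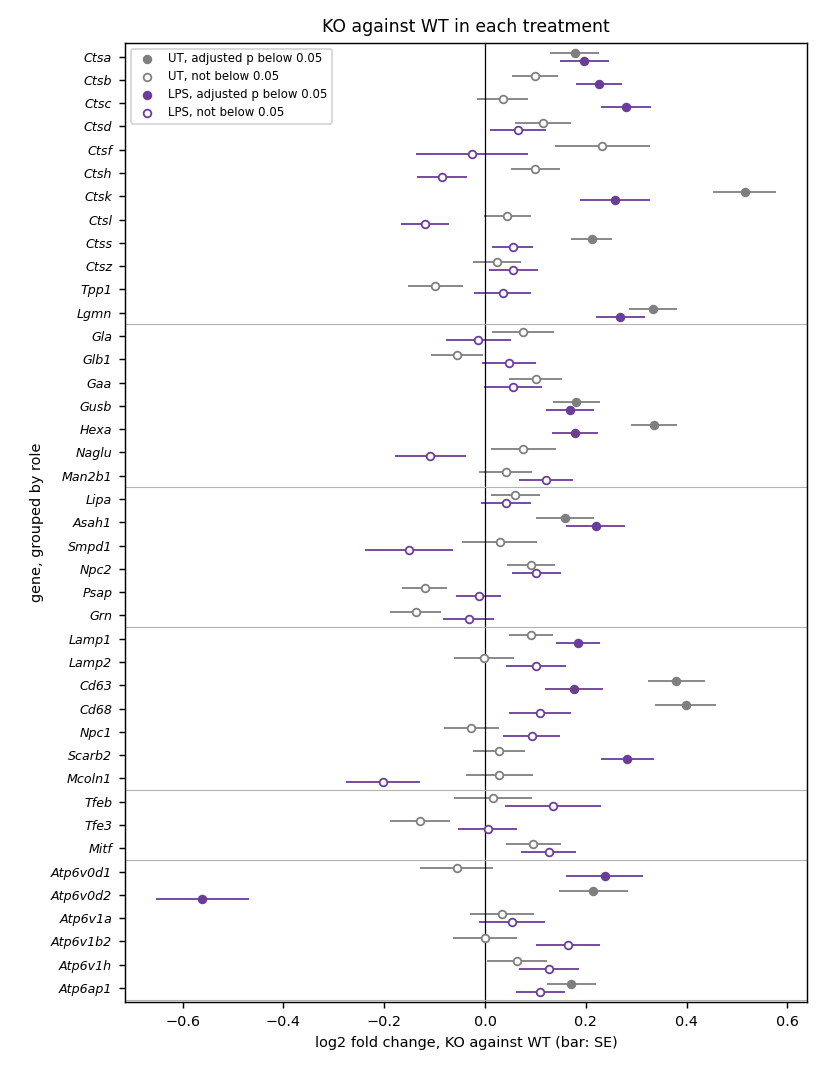
Log2 fold change of each of the 41 lysosomal genes, KO against WT, without LPS (gray) and with LPS (purple), with SE as bars and filled points where the edgeR adjusted p was below 0.05. No point reaches 1 or -1. The filled points lie above 0, from 0.16 to 0.52 without LPS and from 0.17 to 0.28 with it, except Atp6v0d2 at -0.56 with LPS. With total-count scaling 8 members instead of 0 pass as lower without LPS.

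After LPS, 12 of the 41 genes were higher and 1 lower in KO at an edgeR adjusted p below 0.05, against 7.78% and 6.54% of all genes tested (14.3% in either direction). Past both thresholds there were 0, against 1.25% of all genes, also 0 in DESeq2 and 0 at an unadjusted p below 0.05 with the same fold change, against 3.03%. The libraries did not overlap for 20 genes, against 29.1% of all genes, and the median log2 fold change was 0.10, beside -0.01 over all genes. The gene that was lower was Atp6v0d2, at the CPM values given above and at 289 to 474 counts in WT LPS and 248 to 300 in KO LPS (log2FC -0.56 with SE 0.0924, adjusted p 0.000335 by edgeR). It was lower in each batch (-0.62, -0.64 and -0.39) and in all 24 alternatives (-0.76 to -0.44).

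Ctsc was higher in KO LPS (log2FC 0.28 with SE 0.0496, adjusted p 0.000669 by edgeR), with within-batch values of 0.19, 0.27 and 0.39. Lgmn was at 409.9, 406 and 418 CPM in WT LPS and 494, 477 and 517 CPM in KO LPS (log2FC 0.27 with SE 0.0480, adjusted p 0.000717 by edgeR). It was higher in KO in both treatments. Scarb2 (ENSMUSG00000029426.8, chromosome 5, 92441314 to 92506833) was at 218, 210.1 and 201 CPM in WT LPS and 249.6, 254 and 261 CPM in KO LPS (log2FC 0.28 with SE 0.0519, adjusted p 0.000935 by edgeR), whereas its UT libraries overlapped (231, 237 and 229 in WT, 234, 231 and 244 CPM in KO). Ctsb (ENSMUSG00000021939.7, chromosome 14, 63122462 to 63145923) was at 4375, 3840.4 and 4087 CPM in WT LPS and 4749, 4816 and 4823 CPM in KO LPS (log2FC 0.23 with SE 0.0460, adjusted p 0.00222 by edgeR). Lamp1 (ENSMUSG00000031447.7, chromosome 8, 13159161 to 13175338) was at 1151, 1124 and 1089 CPM in WT LPS and 1246, 1281 and 1297 CPM in KO LPS (log2FC 0.19 with SE 0.0440, adjusted p 0.00726 by edgeR). In each of these genes all 3 KO LPS libraries lay above all 3 WT LPS libraries.

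The others were Ctsa, Hexa, Asah1, Ctsk, Gusb, Atp6v0d1 and Cd63, between 0.17 for Gusb and 0.26 for Ctsk, and of these the libraries of Atp6v0d1 overlapped. Of the 13 genes that passed, 12 had the same sign in all 3 batches, while Atp6v0d1 was at -0.05, 0.29 and 0.51. The call of Atp6v0d1 was lost in 13 of 24 alternatives, among them the replicate block (0.24, edgeR adjusted p 0.0609) and leaving out WT LPS replicate 3 (0.14, 0.177). The call of Cd63 was lost in 14 of 24, among them the replicate block (0.18, edgeR adjusted p 0.0695). That of Asah1 was lost in 4 of 24, among them leaving out WT LPS replicate 3 (0.17, edgeR adjusted p 0.0609). Ctsk and Gusb each lost theirs in 6 of 24, Hexa in 3 and Ctsa in 1. For Ctsk these included the fit of the compared groups only (0.25, edgeR adjusted p 0.0547). By role the 12 that were higher were 5 of the 12 proteases, 2 of the 7 glycosidases, 1 of the 6 lipid genes, 3 of the 7 membrane proteins and 1 of the 6 pump proteins. The 2 groups also differed in markers of stromal cells, with a summed level of 5.42 to 7.04 CPM in WT LPS and 17.9 to 19.2 CPM in KO LPS and 5 of 6 tested markers higher in KO, led by Acta2. The osteoclast list, whose cells are rich in Atp6v0d2 and Ctsk, summed to 60.1 to 67.7 CPM in WT LPS and 79.9 to 84.5 CPM in KO LPS, with 3 of 7 tested markers higher (Acp5, Mmp9 and Itgb3), 0 lower and Oscar at no more than 4 counts in any library. Its marker Dcstamp, needed for cell fusion, was at -0.46 (edgeR adjusted p 0.0599), with an interaction of -1.0009 (0.0019). The macrophage list summed to 27598 to 29157 CPM in WT LPS and 29911 to 31749 CPM in KO LPS, with 6 of its 8 markers higher and 0 lower. The part of these lists in the result was not tested. The count was 8 without KO LPS replicate 2 and 8 when only the 2 groups compared were fitted, and 7 with the small RNA share as a covariate. With that covariate Atp6v0d2 (-0.76), Ctsc (0.15), Lgmn (0.30), Ctsb (0.17), Ctsa (0.23) and Hexa (0.18) still passed, while Scarb2 (0.19, edgeR adjusted p 0.0543), Lamp1 (0.13, 0.102), Asah1 (0.06, 0.664), Atp6v0d1 (0.0099, 0.965), Ctsk (0.19, 0.267), Gusb (0.15, 0.123) and Cd63 (0.20, 0.0766) did not. Without the covariate these 7 stood at 0.28, 0.19, 0.22, 0.24, 0.26, 0.17 and 0.18. The numbers were 11 higher and 3 lower with upper-quartile scaling and 10 higher and 3 lower over protein-coding genes only.

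Whether the response to LPS itself differed between KO and WT was tested with the interaction of genotype and treatment. At an edgeR adjusted p below 0.05, 2 of the 41 genes had a larger and 2 a smaller value in KO, against 7.32% and 9.50% of all genes tested (16.8% in either direction). Past both thresholds there were 0, against 2.16% of all genes, also 0 in DESeq2 and 0 at an unadjusted p below 0.05 with the same fold change, against 4.17%. Atp6v0d2 fell further in KO (log2FC -0.78 with SE 0.116, adjusted p 0.000124 by edgeR), with within-batch values of -0.81, -0.85 and -0.63. Cd68 was at 355, 368 and 383 CPM in WT LPS and 366, 425 and 403 CPM in KO LPS, where the groups overlapped, unlike without LPS. For Cd68 (log2FC -0.29 with SE 0.0863, adjusted p 0.0251 by edgeR) the LPS effect was -0.56 in WT and -0.85 in KO. The call of Cd68 held in 12 of 23 alternatives. It was lost with the replicate block (-0.29, edgeR adjusted p 0.0524), in DESeq2 (-0.21, 0.0762) and with total-count scaling (-0.13, 0.271). For Scarb2 (log2FC 0.25 with SE 0.0731, adjusted p 0.0199 by edgeR) the LPS effect was -0.15 in WT and 0.11 in KO. Ctsc rose further in KO (log2FC 0.24 with SE 0.0706, adjusted p 0.0203 by edgeR). The signs of Scarb2, Ctsc and Cd68 turned with the small RNA share as a covariate, to -0.026, -0.16 and 0.035 (edgeR adjusted p 0.974, 0.627 and 0.968). The interaction of Atp6v0d2 with that covariate was -1.41 (edgeR adjusted p 0.0044). The share differed between the groups, so the covariate and the group differences can be separated only in part. The larger and smaller values numbered 10 and 1 in DESeq2, 5 and 1 with RLE scaling, 15 and 1 with total-count scaling and 2 and 8 over protein-coding genes, and the count was 1 without WT UT replicate 2, 2 without KO UT replicate 2 and 12 without WT LPS replicate 1. The other 37 genes, Lipa (-0.02), Npc2 (0.01) and the 3 transcription factors (0.03 to 0.13) included, did not pass the test. Of the tested neutrophil markers 0 of 5 had a larger and 3 a smaller interaction value, and of the stromal markers 3 of 6 and 0. The macrophage list had 2 of 8 and 1, and the osteoclast list 2 of 7 and 1. Their part in the result was not tested.

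Other genes of the pathway were counted as a list of 131, of which 118 could be tested. In WT 65 fell and 35 rose with LPS at an edgeR adjusted p below 0.05, and 69 and 35 did so in KO, while total-count scaling gave 94 and 17 in WT and 95 and 18 in KO. These were 55.1% and 29.7% of the list in WT and 58.5% and 29.7% in KO, beside 35.3% and 38.0% of all genes in WT and 37.7% and 35.1% in KO. In KO UT 34 were higher and 12 lower than in WT UT, but 23 and 22 with RLE scaling and 16 and 40 with total-count scaling, and in KO LPS 23 were higher and 4 lower than in WT LPS. The shares were 28.8% and 10.2% in KO UT, beside 14.1% and 9.69% of all genes, and 19.5% and 3.39% in KO LPS, beside 7.78% and 6.54%. Past both thresholds there were 27 falls and 13 rises in WT (22.9% and 11.02%, beside 18.7% and 19.1% of all genes) and 26 and 16 in KO (22.03% and 13.6%, beside 19.3% and 17.7%). Among 13 further pump subunits 8 rose and 3 fell in WT, with a median log2FC of 0.38 beside -0.54 for the 6 members above, but 3 rose and 8 fell with total-count scaling, where the medians were -0.28 and -1.20. In KO 7 of the 13 rose and 5 fell, with a median of 0.12 beside -0.31 for the 6 members, and 3 rose and 9 fell with total-count scaling. The interaction passed the test as positive for 1 and negative for 4 of the 13 (1 and 2 in DESeq2 and with total-count scaling), against 7.32% and 9.50% of all genes. In WT, Atp6v1e1, a stalk subunit, rose by 1.76 and Tcirg1, the a3 subunit of Vo, by 1.36 on the log2 scale (1.29 and 1.19 in KO). Atp6v0a1, the a1 subunit, fell by 1.70 in both genotypes. Tcirg1 went from 458 to 1176 CPM and Atp6v0a1 from 201 to 62.0 CPM on average in WT.

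Of 38 further hydrolases and cofactors 25 fell and 6 rose in WT, and 25 fell and 7 rose in KO. In WT, Sgsh, the heparan N-sulfatase, fell by 5.04 on the log2 scale, from 49.9 to 1.53 CPM, and Pla2g15, a lysosomal phospholipase, by 2.73. Acp5, an acid phosphatase known from osteoclasts, rose by 3.53 in WT and 4.30 in KO. Of 32 further membrane proteins and transporters 19 fell and 9 rose in WT, and 20 fell and 9 rose in KO. In WT the cation channels split, since Mcoln2 rose by 2.25 while Mcoln3 fell by 3.52 and Tpcn1 by 3.74. Their KO values were 1.98, -3.40 and -3.89. Slc15a3, a transporter of histidine and peptides, rose from 141 to 1114 CPM in WT. Of 12 genes of sorting to the lysosome 5 fell and 5 rose in WT and 4 and 5 in KO (10 and 2 in each with total-count scaling). In WT, M6pr, a mannose 6-phosphate receptor, was at 1.68 and Gga2 and Sort1, sorting adaptor and receptor, at -2.64 and -2.31.

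Of 18 regulators of the MiT/TFE factors 12 fell and 3 rose in WT, and 13 fell and 5 rose in KO. Tfec, the fourth member of the factor family, rose from 10.6 to 95.3 CPM in WT (log2 fold change 3.18) and from 10.0 to 88.01 CPM in KO (3.13). Rragd, a GTPase that recruits these factors to the lysosome, fell from 26.3 to 1.69 CPM in WT (-3.96). Of 5 tested cathepsin inhibitors 4 rose and 1 fell in WT (2 and 2 with total-count scaling), with a median log2FC of 0.76, while 2 rose and 2 fell in KO (2 and 3), with a median of -0.07. The interaction was negative and passed the test for 3 of the 5 (2 with total-count scaling), against 9.50% of all genes. Cst7 (cystatin F), an inhibitor that acts on Ctsc, rose from 0.721 to 54.9 CPM (6.25) and, in KO, from 0.934 to 57.3 CPM (5.95).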

How the data were processed

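Total RNA of the 12 libraries was depleted of ribosomal and globin RNA (TruSeq Stranded Total RNA Globin) and sequenced as 101 bp paired ends. Per the labels and the submitters' processing notes, the authors checked reads with FastQC 0.11.9, aligned them to GRCm38 with HISAT2 2.1.0 and SAMtools 1.17, and counted them per gene with featureCounts 2.0.0. The deposited values are raw counts of 48526 genes. The annotation release, strand setting and treatment of multimapping reads are not given in the sources used here. Without strand, reads of overlapping genes on opposite strands cannot be told apart.

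Groups came from the labels. Counts were fitted in R 4.3.3 with edgeR 4.0.16 (limma 3.58.1) in one model of 4 group means with TMM scaling, after filterByExpr (minimum count 10, total 15) kept 15523 genes and 99.96% of counts. A total of 22406 genes had no count in any library. The quasi-likelihood F test was two-sided, with Benjamini-Hochberg adjustment over all 15523 genes and thresholds of 0.05 and, where stated, an absolute log2 fold change above 1. The biological coefficient of variation was 0.0712. Symbols were matched to 48144 gene IDs through GENCODE for GRCm38, and 382 IDs had no match. Replicates differed beyond counting noise (chi-square per degree of freedom 3.81 to 46.3). Library totals differed by 1.39-fold.

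Replicate numbers are the batch numbers of the labels. The deviations of same-numbered libraries from their group means had correlations of -0.0631 to 0.0373 over 18 pairs, with 0 pairs above 0.1. Alternatives were DESeq2 1.42.0, RLE, upper-quartile and total-count scaling, other gene filters, a replicate block, the small RNA share (9 genes) as a covariate, the compared groups alone and leaving out each library. Promoter windows were searched in Python 3.11.15 and figures drawn with matplotlib 3.10.9.

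The members and gene lists were chosen with earlier results of these data known. All members may be named. Values in every library were given for the members past both thresholds after LPS, up to 4 in each direction per genotype being required, and for up to 6 with the smallest adjusted p below 0.05 in each genotype comparison and the interaction (4 there). Other values were chosen after they were seen.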

Additional observations from a re-analysis of the deposited data

Results flagged for a closer look

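The effect of LPS differed between KO and WT in 4 of the 41 lysosomal genes by the interaction test in edgeR, a share of 9.76% against 16.8% of all genes tested. The interaction log2 fold change was -0.78 for Atp6v0d2 (adjusted p 0.000124), -0.29 for Cd68 (0.0251), 0.25 for Scarb2 (0.0199) and 0.24 for Ctsc (0.0203). For Atp6v0d2 the estimate was negative in all 23 alternatives (-1.41 to -0.62) and in all 3 batches. For Cd68, Scarb2 and Ctsc it turned sign with the small RNA share as a covariate, to values that did not pass (edgeR adjusted p 0.627 to 0.974). The call of Cd68 held in 12 of 23 alternatives and was lost with, among others, the replicate block (-0.29, adjusted p 0.0524). That of Scarb2 held in 18 and that of Ctsc in 20 of 23.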

How the results depend on the processing

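Gene values were recomputed under alternatives only for members and comparisons that passed an adjusted p below 0.05 in edgeR. Of these 2514 values, 2373 kept their direction and their side of the threshold, 129 kept the direction but missed the threshold and 12 turned. Members that passed only under an alternative are not in this tally. With total-count scaling, which was chosen after the data were seen and shifted the all-gene median log2 fold change by -0.66 for LPS in WT, -0.51 for LPS in KO and -0.15 for KO UT against WT UT, the WT LPS effect was -0.0085 for Lamp2, -0.25 for Atp6v1h and -0.50 for Ctss (-0.017 with upper-quartile scaling), and the KO LPS effect was -0.033 for Atp6v1h and -0.31 for Grn. The interaction with the small RNA share as a covariate, without and with the replicate block, was -0.026 and -0.036 for Scarb2, -0.16 and -0.15 for Ctsc and 0.035 and 0.030 for Cd68. The cause was not tested.

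Past both thresholds after LPS, total-count scaling gave 26 genes in WT and 22 in KO, and upper-quartile scaling 19 in KO, beside 9 and 10. At any fold change, KO LPS against WT LPS gave 7 with the small RNA covariate, 5 with the block added and 8 with the compared groups only, beside 13. KO UT against WT UT gave 17 with the compared groups only, beside 11. The interaction gave 11 in DESeq2 (10 larger in KO, 1 smaller), 16 with total-count scaling (15 and 1), 10 over protein-coding genes (2 and 8), 7 at a mean CPM of at least 1 (2 and 5) and 2 with covariate and block, beside 4, and 5 and 1 with RLE scaling. Past both thresholds the interaction gave 1 with the covariate and 1 with the block added, beside 0.

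Leaving out each library in turn gave 8 (without KO LPS replicate 2) to 19 for KO LPS against WT LPS, 7 (without WT UT replicate 2) to 15 for KO UT against WT UT, and 1 (without WT UT replicate 2) to 12 (without WT LPS replicate 1) for the interaction, which was 2 without KO UT replicate 2. After LPS it gave 37 to 38 in WT and 38 to 40 in KO at any fold change, and 9 and 8 to 12 past both thresholds. With the replicate block the counts were 38 in WT and 39 in KO after LPS, 11 for KO LPS against WT LPS, 10 for KO UT against WT UT and 3 for the interaction. At 3 libraries a group, a missed threshold does not show equal levels.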
